A study of Mus musculus with 8 samples.

Results

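Cardiac pericytes, the mural cells that wrap capillaries, were examined in left ventricular single-cell RNA sequencing of mice after sham surgery or myocardial ischemia–reperfusion (IR). Cells were selected on measured UMIs (unique molecular identifiers, which count captured RNA molecules). A barcode needed at least 200 genes and at most 30% mitochondrial UMIs, at least 4 UMIs summed over Kcnj8, Vtn, Abcc9 and Colec11, and low counts of other classes. These limits were at most 3 UMIs of Myh11 and Acta2 for smooth muscle, under 0.3% of UMIs from Dcn and Col3a1 for fibroblasts, under 0.1% from C1qa, C1qb and C1qc for macrophages, under 1% from S100a8 and S100a9 for neutrophils, and at most 1 UMI of Cdh5 for endothelium. The rule held 631 pericytes among 20159 barcodes, with 539 of 11620 in sham and 92 of 8539 in IR. The mice were adult male C57BL/6 animals. IR was a temporary ligation of the left anterior descending coronary artery followed by reperfusion, and left ventricles were dissociated 6 h after either operation. The sample records name the control samples by 0 h, and they are called sham here because the study describes only sham and IR operations for these libraries. Each group has 4 listed samples, each described as a pool of several hearts. Their cells were deposited in 1 matrix per group with no mark of the sample, so each group is 1 library and no difference between groups could be tested. All intervals below cover counting error at the 95% level only.

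Pericytes sit within the basement membrane of small vessels and communicate with endothelium through platelet-derived growth factor, Notch and angiopoietin signals. In the heart they are known for a potassium channel formed by Kcnj8 and Abcc9, which couples metabolism to membrane potential, and for regulating capillary diameter. They express vasoactive receptors and can release chemokines that attract leukocytes. Kcnj8 and Abcc9 are neighbors on mouse chromosome 6 (GRCm38), at chr6:142564837-142571614 and chr6:142587862-142702315, both on the minus strand.

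The regulatory sequence of a few genes that carry the differences between sham and IR is shown first. Each run is the 250 bases upstream of a RefSeq transcript start in GRCm38.p6, 5′ to 3′ on the strand of the gene. Ifit3 (chr19:34583279-34583528, plus strand) and Isg15 (chr4:156200819-156201068, minus strand) stand for the interferon response genes, which were lower in IR pericytes. Capitals mark the core of the interferon-stimulated response element, GAAANNGAAA, on either strand.
Ifit3: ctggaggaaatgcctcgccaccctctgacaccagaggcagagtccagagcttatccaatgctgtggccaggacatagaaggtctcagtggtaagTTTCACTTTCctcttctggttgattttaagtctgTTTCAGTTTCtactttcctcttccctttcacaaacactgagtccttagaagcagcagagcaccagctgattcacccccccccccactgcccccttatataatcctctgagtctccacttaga
Isg15: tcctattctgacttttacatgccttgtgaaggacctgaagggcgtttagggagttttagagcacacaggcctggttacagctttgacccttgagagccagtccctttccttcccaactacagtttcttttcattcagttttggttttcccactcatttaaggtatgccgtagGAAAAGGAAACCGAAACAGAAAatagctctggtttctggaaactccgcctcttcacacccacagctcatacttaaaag
Ifit3 held 2 matches and Isg15 held 3 that overlap each other. In all, 2.98% of 32851 upstream windows held this core, and 9 of the 20 interferon and MHC class I genes with a window did.

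Mt1 (chr8:94178839-94179088, plus strand) and Mt2 (chr8:94172368-94172617, plus strand) encode the metallothioneins, metal-binding proteins that were higher in IR pericytes. Capitals mark the metal response core, TGCACNC or TGCGCNC, on either strand.
Mt1: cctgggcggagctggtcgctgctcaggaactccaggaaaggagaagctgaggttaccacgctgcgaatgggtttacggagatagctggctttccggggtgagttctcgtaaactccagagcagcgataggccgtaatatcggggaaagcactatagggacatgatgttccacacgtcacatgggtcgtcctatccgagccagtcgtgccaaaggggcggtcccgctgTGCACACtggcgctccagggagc
Mt2: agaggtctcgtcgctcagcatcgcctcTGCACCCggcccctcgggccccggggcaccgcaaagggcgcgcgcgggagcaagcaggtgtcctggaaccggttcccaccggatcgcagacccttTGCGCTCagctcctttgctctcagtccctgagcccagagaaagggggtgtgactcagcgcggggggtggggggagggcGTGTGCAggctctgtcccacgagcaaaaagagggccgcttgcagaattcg
Mt1 held 1 match and Mt2 held 3, while Mt3, which had 0 UMIs in sham and 38 in IR pericytes, held none. Thus 2 of 3 metallothionein genes held the core, as did 21.4% of all windows. Cxcl1 (chr5:90890995-90891244, plus strand) and Il6 (chr5:30012864-30013113, plus strand) stand for the chemokine and cytokine genes. Capitals mark the NF-kB consensus on either strand.
Cxcl1: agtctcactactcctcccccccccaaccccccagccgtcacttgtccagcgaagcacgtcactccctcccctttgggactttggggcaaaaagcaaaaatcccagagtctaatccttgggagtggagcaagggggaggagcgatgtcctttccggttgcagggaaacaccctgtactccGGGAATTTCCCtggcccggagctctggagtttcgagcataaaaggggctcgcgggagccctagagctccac
Il6: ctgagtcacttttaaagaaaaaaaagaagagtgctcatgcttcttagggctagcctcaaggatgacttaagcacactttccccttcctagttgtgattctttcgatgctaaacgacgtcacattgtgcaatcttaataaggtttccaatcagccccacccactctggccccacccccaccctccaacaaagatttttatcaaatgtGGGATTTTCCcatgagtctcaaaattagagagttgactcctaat
Cxcl1 held 2 overlapping matches and Il6 held 1. The consensus was in 7.25% of all windows and in 6 of the 20 chemokine, cytokine and adhesion genes with a window. For all 3 motifs, a gene of a list counted when any of its windows held a match, while the share of all windows counts each window by itself. These matches describe letters and no binding was measured.

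Pericytes made up 4.74% (exact Clopper-Pearson interval 4.35 to 5.14) of 11377 filtered barcodes in sham and 1.11% (0.899 to 1.36) of 8260 in IR. Among cells of 4 classes read by fixed marker limits (pericytes, smooth muscle cells, fibroblasts and endothelial cells), the 539 sham pericytes stood among 3837 cells (an interval of 13.0% to 15.2%). The 92 IR pericytes stood among 1092 cells, which is 8.42% (6.85% to 10.2%). There were 2.48 pericytes per smooth muscle cell in sham and 1.23 in IR. The share also depends on which barcodes are deep enough to be kept. With barcodes under 2000 UMIs left out and the rest thinned to 2000, it was 2.04% (197 of 9673) in sham and 0.936% (71 of 7585) in IR. The median sham pericyte, at 1816 UMIs, lies under that limit. The loss of shallow pericytes and the lower reading depth were not told apart.

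Sham pericytes were shallow. Their median was 1816 UMIs and 1054 genes, against 4520 UMIs and 2092 genes in IR, and the median mitochondrial share was 5.43% in sham and 8.28% in IR. In total, 1144367 UMIs were summed in sham pericytes and 473087 in IR pericytes. The libraries shared 30 barcodes, and no pericyte barcode occurred in both. At the marker limit, sham held 8 cells with 4 marker UMIs, just inside, and 2 with 3, just outside, and IR held 1 and 6. The median pericyte had 19 marker UMIs in sham and 23.5 in IR.

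Some barcodes carried RNA of a second cell. UMIs of 8 leukocyte genes (Ptprc, Tyrobp, Fcer1g, Coro1a, Laptm5, Cd52, Rac2 and Cd53) reached at least 3 in 33 sham pericytes, which held 17.8% of sham pericyte UMIs, and in 8 IR pericytes, which held 20.4%. No doublet caller was run, so the main values include them and values without them are given where they matter. Leaving them out, 506 sham and 84 IR pericytes remained. Neutrophil genes stayed higher in IR in that setting. The 3 compared had a median log2 ratio of IR over sham of 3.66, against 4.06 with all barcodes. Hemoglobin was concentrated in few barcodes, with 95.7% of sham Hbb-bs UMIs in the 10% of pericytes that held most, and 1 sham barcode had 626725 CPM of the red blood cell genes together. Endothelial genes were uneven. Fabp4, a fatty acid-binding protein, was at 1325 CPM (UMIs of a gene per 1000000 UMIs) in sham and 2769 CPM in IR pericytes, while Pecam1, a defining endothelial gene, was at 21.0 CPM and 0. Cd36, another endothelial gene, had 59 UMIs in sham and 27 in IR pericytes. The cells were selected on low Cdh5, and the part of endothelial RNA in the Fabp4 level was not tested.

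The pericyte label was checked with genes the rule did not use. Rgs5, a regulator of G protein signaling and a widely used pericyte marker, was at 8757 CPM in sham and 9011 CPM in IR pericytes, found in 539 of 539 and 91 of 92 cells. Smooth muscle cells had 1903 and 3040 CPM of Rgs5, and fibroblasts 9.91 and 3.69 CPM. Pdgfrb, the receptor for platelet-derived growth factor B, was at 1547 and 1907 CPM in pericytes, against 216 and 437 CPM in smooth muscle cells. The plot of marker levels by class shows both. Contractile genes set pericytes apart from smooth muscle cells in the other direction. Tagln, an actin-binding protein of smooth muscle, was at 38.4 and 25.4 CPM in pericytes against 18016 and 8317 CPM in smooth muscle cells. Both classes were set by UMIs of Myh11 and Acta2, at most 3 and at least 10, so this gap does not check the label.

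**Figure D1:**
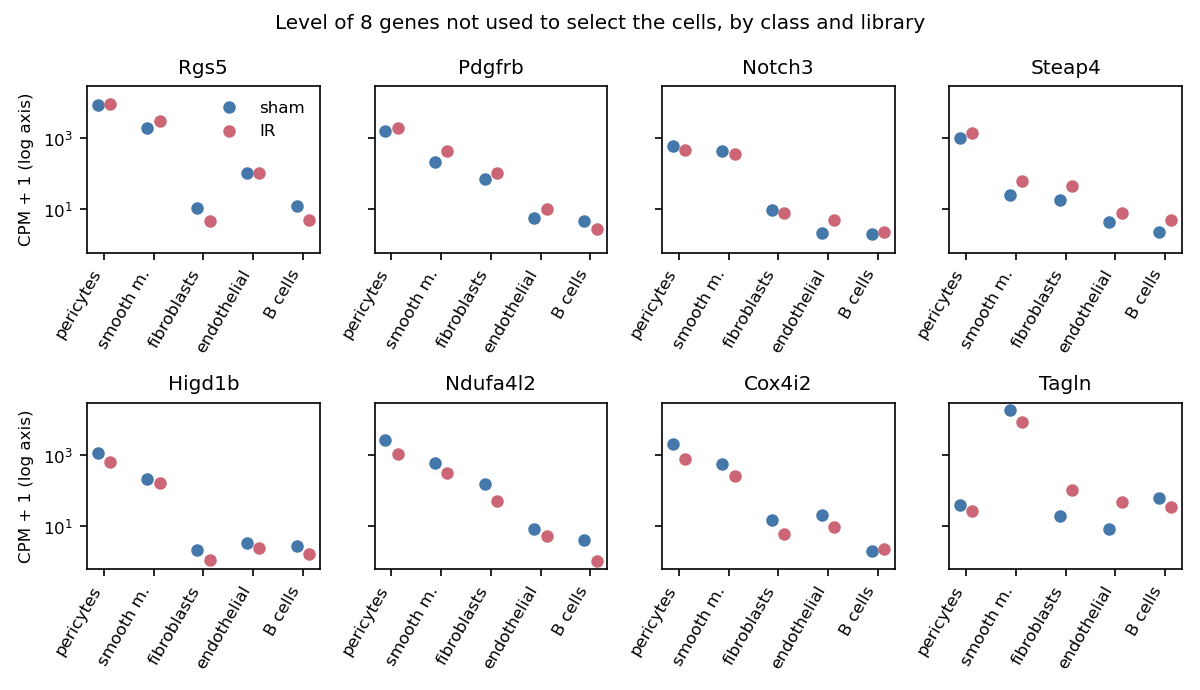
CPM plus 1 on a log axis for 8 genes that did not select the cells, in 5 classes, with 1 point per library (blue sham, red IR). Rgs5, Pdgfrb and Steap4 were highest in pericytes of both libraries, while Tagln was highest in smooth muscle cells.

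The genes that led pericytes against the highest of the other 4 classes included, beside the 4 genes of the rule, P2ry14, Steap4 and 4833422C13Rik. P2ry14, a receptor for UDP-glucose, was at 316 and 222 CPM. Steap4, a metalloreductase, was at 1034 and 1427 CPM. These are descriptions of cells chosen by related genes, not tests.

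Between libraries, 7000 genes had at least 30 UMIs summed over both. Of these, 578 were at least 2-fold higher in IR pericytes, which is 8.26% of genes compared, and 585 were at least 2-fold lower, which is 8.36%. The median log2 ratio of all genes compared was 0.001. The gene lists below are read against these shares. The scatter of sham against IR levels shows that most genes lay near the diagonal.

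**Figure D2:**
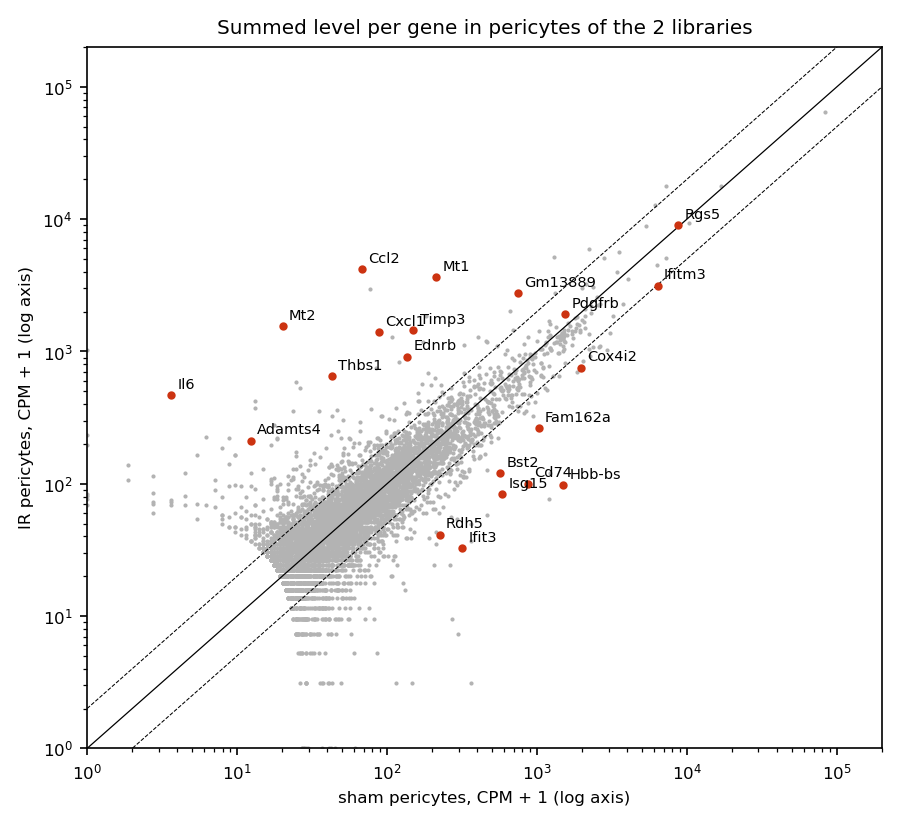
CPM plus 1 of 7000 genes in sham (x) and IR (y) pericytes, both on log axes, with 1 gray point per gene and named genes in red. The solid line marks equal levels and the dashed lines 2-fold differences. Ccl2, Mt1 and Mt2 lay far above the lines and Ifit3 and Isg15 below.

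Most pericyte markers outside the rule lay within 2-fold. Of 19 compared, 1 was at least 2-fold higher and 3 were at least 2-fold lower, with a median log2 ratio of -0.38. Of all genes compared, 8.26% were higher and 8.36% were lower. Rgs5 had a log2 ratio of 0.04 (-0.01 to 0.09) and Pdgfrb 0.30 (0.18 to 0.42). Gm13889, a gene of unassigned function here, was the one above 2-fold, at 743 CPM in sham and 2754 CPM in IR (log2 1.89, 1.76 to 2.02). Ndufa4l2, a mitochondrial complex subunit paralog, was at 2591 CPM in sham and 1076 CPM in IR (log2 -1.27, -1.41 to -1.13). Cox4i2, a cytochrome oxidase subunit isoform, was at 1954 and 753 CPM (log2 -1.38, -1.54 to -1.21), and Atp1b2, a sodium pump subunit, at 378 and 152 CPM (log2 -1.31, -1.69 to -0.95). Ndufa4l2 and Cox4i2 were also lower in IR smooth muscle cells, with log2 ratios of -0.92 and -1.10. Among the rule's own genes, given as a description, Kcnj8 was at 3210 and 1856 CPM, Vtn at 2916 and 1023 CPM, Abcc9 at 1799 and 1427 CPM and Colec11 at 1845 and 702 CPM.

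Among the lists of pericyte functions, chemokine and cytokine genes had the highest median. Of 16 compared, 12 were at least 2-fold higher and 2 at least 2-fold lower, with a median log2 ratio of 3.79. Without the leukocyte-carrying barcodes, 9 of 13 compared were higher and 2 lower, with a median of 2.57. In that setting 7.30% of 6217 genes were at least 2-fold higher and 8.28% lower. With at most 2500 genes per barcode the median of the list was 1.69 over 10 genes. With the rule read at 2000 UMIs it was 2.52 over 9 genes. The list was also higher in the other classes. Its median was 1.96 in smooth muscle cells, 1.08 in fibroblasts, 2.21 in endothelial cells and 2.25 in B cells. Neutrophil marker genes were also higher inside the IR pericyte barcodes, at 2226 CPM summed against 153 CPM in sham, and their part was not tested. Ccl2, which attracts monocytes, was at 67.3 CPM in sham and 4204 CPM in IR pericytes, a log2 ratio of 5.97 (5.64 to 6.31). It was at 3777 CPM in IR without the leukocyte-carrying barcodes, in 51 of 84 cells. Cxcl1, which attracts neutrophils, was at 87.4 CPM in sham and 1399 CPM in IR (log2 4.00, 3.70 to 4.32). Il6, an inflammatory cytokine, was at 2.62 CPM in sham, from 3 UMIs, and 469 CPM in IR (log2 7.48, 5.92 to 9.77).

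These genes were unevenly spread among IR pericytes. Ccl2 was found in 57 of 92 IR cells and in 38 of 539 sham cells, and the 10% of IR cells with most Ccl2 held 85.3% of its UMIs. Il6 was found in 20 IR cells, and 1 cell held 33.8% of its UMIs. Of 92 IR pericytes, 14 had UMIs of all 3 of Ccl2, Cxcl1 and Il6 and 16 had none, against 0 and 448 of 539 in sham. Cxcl2, a related neutrophil chemokine, was likewise concentrated, with 42.4% of its UMIs in 1 IR cell. It was at 76.0 and 2974 CPM, but its log2 ratio of 5.29 was 3.01 without the leukocyte-carrying barcodes, and Il1b went from 3.58 to 2.57. Cxcl12, a chemokine that retains stem and immune cells, was lower, at 350 CPM in sham and 125 CPM in IR (log2 -1.49, -1.91 to -1.09).

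The shares of cells with a UMI were also read with each cell thinned to 1000 UMIs, in 508 sham and 90 IR pericytes. Ccl2 was found in 4.92% of sham and 35.6% of IR pericytes, against 7.05% and 62.0% unthinned. B cells, taken as a class that should lack these genes, showed Ccl2 in 2.64% and 13.5% of thinned cells. The B cells had median depths of 2699 UMIs in sham and 3497 in IR. Cxcl1 was found in 28.9% of IR pericytes and 6.16% of IR B cells, and Il6 in 8.89% and 1.86%. Timp3 and Ednrb were further from that background, in 67.8% and 34.4% of IR pericytes and in 1.43% and 0 of 698 thinned IR B cells, which allows a share of up to 0.430% for Ednrb.

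**Figure D3:**
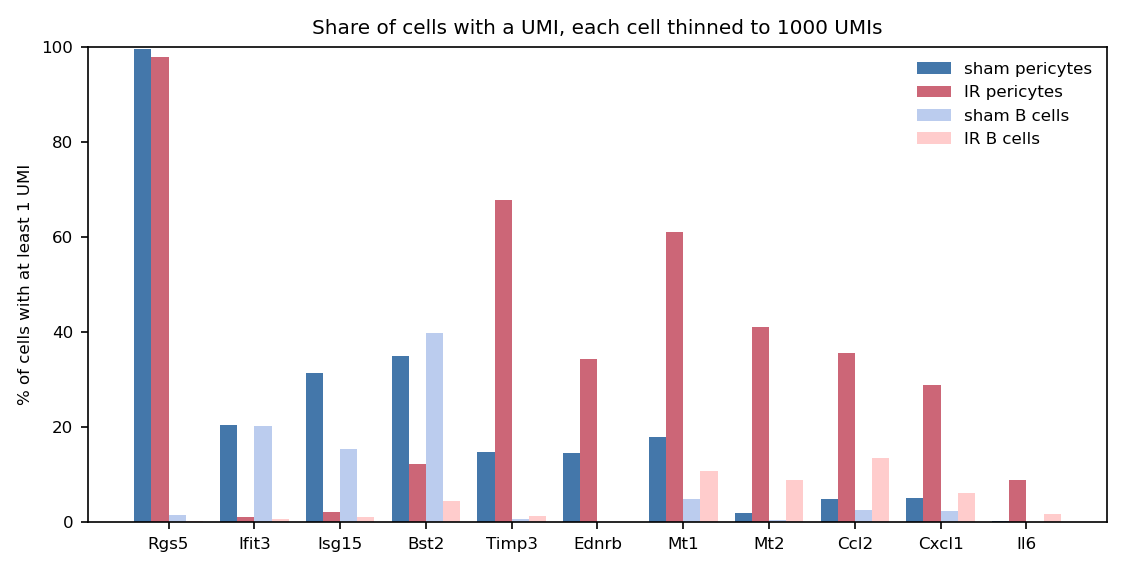
Percent of cells with at least 1 UMI of 11 genes after thinning each cell to 1000 UMIs, in pericytes (dark bars) and B cells (pale bars) of sham (blue) and IR (red). Timp3, Mt1 and Ccl2 were found in more IR than sham pericytes, and Ifit3, Isg15 and Bst2 in fewer.

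Receptors and signaling genes downstream of cytokines were higher as a group. Of 24 compared, 16 were at least 2-fold higher and 0 at least 2-fold lower, with a median log2 ratio of 1.24. Without the leukocyte-carrying barcodes 10 of 18 compared were higher, with a median of 1.14. In other classes the median of the list was 1.39 in smooth muscle cells, 1.04 in endothelial cells, 0.64 in fibroblasts and 0.43 in B cells. Osmr, a receptor subunit for oncostatin M, was at 41.9 and 323 CPM (log2 2.95, 2.47 to 3.45). Nfkbia, an inhibitor of NF-kB, was at 326 and 1116 CPM (log2 1.78, 1.58 to 1.97). Tnfrsf1a, a receptor for tumor necrosis factor, was at 185 and 425 CPM (log2 interval 0.91 to 1.48).

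Ednrb was the vasoactive receptor that differed most. This endothelin receptor was at 135 CPM in sham and 913 CPM in IR pericytes (log2 2.76, 2.49 to 3.04), in 118 of 539 and 60 of 92 cells. The related receptor Ednra was at 163 and 182 CPM (log2 0.16, -0.22 to 0.54). In smooth muscle cells Ednrb had a lower level, at 5.10 and 45.2 CPM, with a log2 ratio of 3.15. Of 17 vasoactive receptors, channels and cGMP genes compared, 3 were at least 2-fold higher and 1 at least 2-fold lower. Adora2a, an adenosine receptor, was the lower one, at 92.6 and 31.7 CPM (log2 -1.55, -2.43 to -0.76).

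Matrix turnover genes were higher in 9 of 16 compared and lower in 1, with a median log2 ratio of 1.38. Without the leukocyte-carrying barcodes 6 of 13 compared were higher and the median was 0.97, and with at most 2500 genes per barcode the median was 0.53. In each of the other classes, more genes of the list were at least 2-fold higher than at least 2-fold lower. In endothelial cells 9 of 15 compared were at least 2-fold higher and 2 lower, and in B cells 8 of 13 and 0. In smooth muscle cells 8 of 17 were higher and 2 lower, and in fibroblasts 10 of 25 and 2. The share of all genes at least 2-fold higher or lower was read in pericytes only. The counts in the other classes therefore give a direction, and an excess over all genes of those classes was not tested. Thbs1, thrombospondin 1, was at 41.9 and 649 CPM (log2 3.95, 3.51 to 4.42). Adamts4, a protease that cleaves proteoglycans, was at 11.4 and 211 CPM (log2 4.22, 3.38 to 5.18). Basement membrane genes differed less, with 2 of 19 at least 2-fold higher, 1 lower and a median log2 ratio of 0.15. Timp3, a matrix-bound inhibitor of metalloproteinases, was the largest of them, at 149 CPM in sham and 1450 CPM in IR (log2 3.29, 3.04 to 3.54). In smooth muscle cells Timp3 was at 589 and 523 CPM, with a log2 ratio of -0.17.

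Metallothioneins were among the genes furthest above sham. Mt1 was at 211 CPM in sham and 3653 CPM in IR (log2 4.11, 3.92 to 4.31), in 150 of 539 and 86 of 92 cells. Mt2 was at 19.2 and 1562 CPM (log2 6.34, 5.74 to 7.03). Hypoxia, glycolysis and metallothionein genes as a list had 6 of 15 at least 2-fold higher and 2 lower, with a median log2 ratio of 0.48 that was -0.09 over 12 genes without the leukocyte-carrying barcodes and -0.26 over 13 genes with at most 2500 genes per barcode. Hmox1, heme oxygenase 1, was at 7.86 and 222 CPM, but 1 IR cell held 73.3% of its UMIs. P4ha1, a collagen prolyl hydroxylase, was lower, at 293 and 97.2 CPM (log2 -1.59, -2.07 to -1.14).

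**Figure D4:**
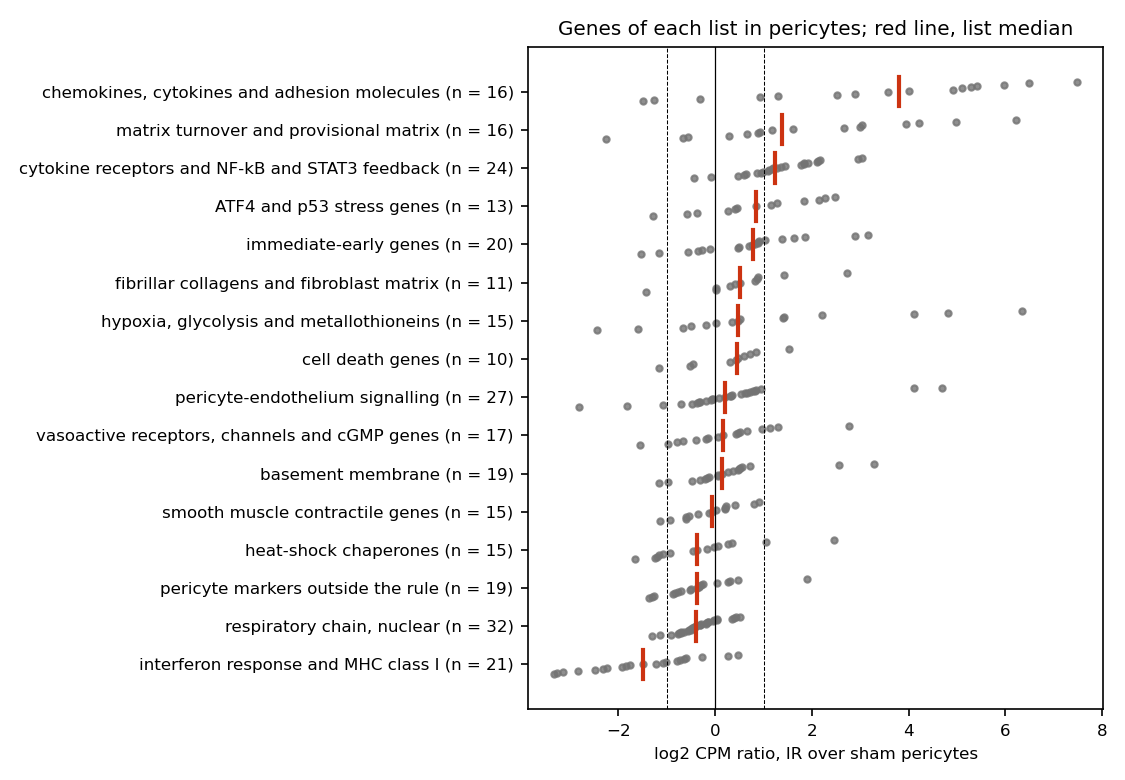
Log2 CPM ratio of IR over sham pericytes for genes compared in each list (gray points), with the list median in red and dashed lines at 2-fold. Chemokine and cytokine genes had a median of 3.79 and interferon and MHC class I genes one of -1.48.

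Among the lists of pericyte functions, interferon response genes had the lowest median. Of 21 compared, 0 were at least 2-fold higher and 14 at least 2-fold lower, with a median log2 ratio of -1.48, and 13 of 21 were lower without the leukocyte-carrying barcodes. Isg15, a ubiquitin-like modifier, was at 586 CPM in sham and 82.4 CPM in IR (log2 -2.83, -3.34 to -2.36). Ifit3, which binds viral RNA complexes, was at 317 and 31.7 CPM (log2 -3.32, -4.17 to -2.58), in 174 of 539 and 3 of 92 cells. Bst2, a membrane tether of budding virus, was at 565 and 120 CPM (log2 -2.23, -2.65 to -1.84). Ifitm1 was on the other side, at 819 and 1141 CPM (log2 0.48, 0.32 to 0.63). The lower levels were not limited to pericytes, since the median log2 ratio of the list was -0.99 in smooth muscle cells, -2.13 in fibroblasts, -1.54 in endothelial cells and -1.51 in B cells. In thinned cells Ifit3 was found in 20.5% of sham pericytes and 20.2% of sham B cells.

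Counts of respiratory chain, chaperone and contractile genes stand beside the shares of all genes compared, 8.26% at least 2-fold higher and 8.36% lower. None of 32 nuclear respiratory chain genes was at least 2-fold higher and 2 were at least 2-fold lower, with a median log2 ratio of -0.40. Cox8a, a cytochrome oxidase subunit, was at 1526 and 814 CPM (log2 -0.91, -1.07 to -0.75). Of 15 heat-shock chaperones, 2 were at least 2-fold higher and 5 lower, with a median of -0.37. Hsp90ab1 was at 3079 and 1385 CPM (log2 -1.15, -1.28 to -1.03), while Hspa1a was at 696 and 1444 CPM (log2 1.05). Without the leukocyte-carrying barcodes 0 chaperones were at least 2-fold higher and 6 were lower, and Hspa1a was at 0.97. Contractile genes had 0 of 15 higher and 1 lower, and of the proliferation genes only Pcna had enough UMIs, with a log2 ratio of 0.14 (-0.59 to 0.83).

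Early response and stress genes varied. Of 20 immediate-early genes, 6 were at least 2-fold higher and 2 lower, with a median log2 ratio of 0.79. Myc, a growth-associated transcription factor, was at 12.2 and 44.4 CPM (log2 1.86, 0.82 to 2.95), and Fos was at 1059 and 822 CPM. Of 13 ATF4 and p53 stress genes, 6 were higher and 1 lower, with a median of 0.85, and 8 of 13 were higher without the leukocyte-carrying barcodes, while the median was 0.17 over 8 genes with the rule read at 2000 UMIs. Of 27 genes of signaling between pericytes and endothelium, 2 were higher and 3 lower, with a median of 0.20. Notch3, the mural Notch receptor, was at 589 and 469 CPM (log2 -0.33, -0.55 to -0.11). Of 11 fibrillar collagen and fibroblast matrix genes, 2 were higher and 1 lower (median 0.51), and of 10 cell death genes, 1 was higher and 1 lower (median 0.45).

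Several marker lists of other cells differed between the libraries inside the pericyte barcodes. The 8 neutrophil genes summed to 153 CPM in sham and 2226 CPM in IR, with 3 genes at 0 in sham, and 95.7% of IR pericytes had at least 1 such UMI. The 9 macrophage genes summed to 2030 and 985 CPM, the 10 cardiomyocyte genes to 299 and 67.6 CPM and the red blood cell genes to 2435 and 222 CPM. Endothelial genes summed to 1990 and 3317 CPM, with 4 of 11 at 0 in IR, and fibroblast genes to 828 and 856 CPM. B cell genes summed to 385 and 8.46 CPM, T cell genes to 70.8 and 4.23 CPM, Schwann cell genes to 38.4 and 10.6 CPM and platelet genes to 65.5 and 114 CPM. Their part in the differences between the libraries was not tested.

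Outside the lists, genes were named by size of ratio at 50 CPM or more, leaving out genes whose pericyte level was at most 4 times the B cell level. Among the 15 highest, besides those above, were Zbtb16, a zinc finger transcription factor (2.62 CPM in sham, from 3 UMIs, and 74.0 CPM in IR, log2 4.82, 3.15 to 7.16), and Tnfrsf12a, the receptor for TWEAK (8.74 and 163 CPM, log2 4.22). Cxcl3 had 0 UMIs in sham and 481 in IR, at least 388-fold higher with 3 UMIs as the floor of the sham pericytes together. The log2 bound of 8.60 was 7.69 without the leukocyte-carrying barcodes, 7.60 with at most 2500 genes, 7.38 under stricter limits on other classes and 6.04 with the rule read at 2000 UMIs. Of these 15 genes, 13 stayed at least 2-fold higher without the leukocyte-carrying barcodes. The exceptions were Slpi and Inhba. Slpi, a protease inhibitor, went from a log2 ratio of 5.10 to 0.32, with 82.3% of its IR UMIs in 1 cell. Inhba, an activin subunit, went from 40 IR UMIs, 72.5% of them in 1 cell, to 0.

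Among the 15 lowest was Fam162a, a mitochondrial protein known to respond to hypoxia, at 1026 CPM in sham and 264 CPM in IR (log2 -1.96, -2.23 to -1.69). Its log2 ratio was -0.75 in smooth muscle cells, -0.15 in fibroblasts and -0.01 in endothelial cells, and these differences between classes were not tested. Rdh5, a retinol dehydrogenase, was at 224 and 40.2 CPM (log2 -2.48, -3.23 to -1.80). Dapk2, a calmodulin-regulated kinase, was at 109 and 25.4 CPM (log2 -2.11, -3.10 to -1.25). Abhd14b and Abhd14a were lowest, with log2 ratios of -3.16 (-5.48 to -1.55) and -2.70 (-4.62 to -1.28). They rest on 3 and 4 IR UMIs, so both are uncertain. Their annotated 5′ ends overlap on opposite strands of chromosome 9. All 15 stayed at least 2-fold lower without the leukocyte-carrying barcodes.

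**Figure D5:**
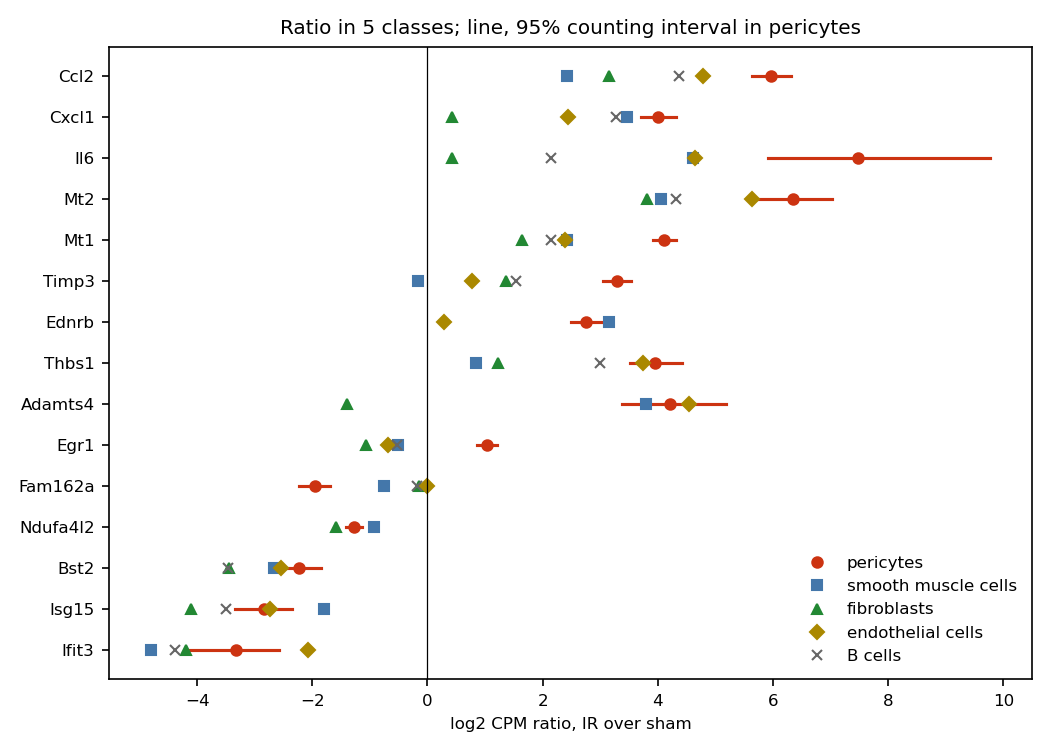
Log2 CPM ratio of IR over sham for 15 genes in 5 classes, with the 95% counting interval in pericytes as a red line and no point for a class with too few UMIs. Timp3 had a ratio of 3.29 in pericytes and -0.17 in smooth muscle cells, while Isg15 and Ifit3 were below 0 in all 5 classes.

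Pericyte barcodes also differed among themselves within each library, whose samples cannot be told apart. At 1000 UMIs per cell, the highest variance over mean in sham belonged to hemoglobin genes, led by Hbb-bs at 294, with 430 of 1000 UMIs in 1 cell. The leukocyte genes Plac8, Lyz2, Cd74 and Ly6c2 were also among the 15 highest in sham, and Slpi, Il1b and Ccl5 in IR. None of these was among the 15 highest without the leukocyte-carrying barcodes. In sham, Mgp, matrix Gla protein, had a variance over mean of 7.44 and Fos 3.66. The part of RNA from other cells in this variation was not tested. In IR pericytes Ccl2 led at 25.4, and it still led at 27.2 without the leukocyte-carrying barcodes. Mt1 had a variance over mean of 7.31 in IR, and the 10% of IR cells with most Mt1 held 44.5% of its UMIs. In unthinned cells, which differ in depth, the same share was 47.3% for Mt1 and 31.8% for Timp3, which was spread more evenly.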

How the data were processed

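Left ventricular cells of sham and IR mice were profiled with 10× Chromium 3′ chemistry. Raw UMI counts, as the authors deposited them, came in 1 matrix per group, aligned to mm10 with Cell Ranger (version 3.1.0 per the file headers). The 4 samples per group cannot be told apart in the matrices, so no test was made.

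Members and gene lists were chosen with earlier results of these data known. Counts were summed over cells of a class and scaled to CPM. Ratios carry exact conditional binomial intervals, shares Clopper-Pearson intervals, and a count of 0 was set to 3 UMIs. UMIs were not corrected for free RNA and no doublets were removed. Smooth muscle cells needed at least 10 UMIs of Myh11 and Acta2, fibroblasts at least 1% Dcn and Col3a1, endothelial cells at least 4 UMIs of Cdh5, Pecam1 and Kdr with at least 2 of Cdh5, and B cells at least 5 of Cd79a, Cd79b and Ms4a1. The filter kept 11377 sham and 8260 IR barcodes, with median depths of 4649 and 6636 UMIs, and no upper limit on genes was set. Named genes were the 15 highest and 15 lowest ratios at 50 CPM or more and at least 30 UMIs, leaving out mitochondrial, hemoglobin, rule and other-cell genes and those near the B cell level, and 20 genes leading pericytes against other classes. A few genes that met these rules are not reported here. Upstream sequences came from RefSeq and gene positions from GENCODE vM21. Intervals and ratios were tested on simulated sums with Poisson counting error only. That simulation held no variation between cells, so it does not cover genes concentrated in few cells. Python 3.11.15, numpy 2.4.6, scipy 1.17.1 and matplotlib 3.10.9 were used.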

Additional observations from a re-analysis of the deposited data

Results flagged for a closer look

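Some genes were at least 2-fold higher in IR pericytes and at least 2-fold lower in IR cells of another class, or the reverse. With 1 library per group these differences were not tested. Against fibroblasts, the log2 ratio in pericytes and then in fibroblasts was 4.22 and -1.40 for Adamts4, 2.51 and -1.98 for Cxcl10, 1.85 and -1.21 for Socs3, 1.38 and -1.03 for Atf3, and 1.29 and -1.57 for Cdkn1a. It was 1.16 and -1.25 for Gadd45g, 1.13 and -1.77 for Avpr1a, and 1.03 and -1.07 for Egr1. Against smooth muscle cells it was 1.38 and -1.19 for Atf3 and 2.45 and -1.49 for Cryab. Against endothelial cells it was 5.60 and -1.75 for Inhba, which had 2 sham UMIs (interval 3.65 to 8.69) and no IR UMIs once the leukocyte-carrying barcodes were left out. It was -1.17 and 1.86 for Col15a1, -1.28 and 1.29 for Gadd45a, and -1.26 and 1.64 for Vcam1, whose pericyte interval of -2.99 to 0.12 includes 0. Spp1 had 0 UMIs in sham pericytes, so its 4.97, against -1.65 in endothelial cells, is a value at the 3 UMI floor. Without the leukocyte-carrying barcodes the pericyte value was 4.14 for Adamts4, 1.68 for Cdkn1a and 1.15 for Egr1, but 1.42 for Cxcl10, 0.83 for Socs3, 0.95 for Atf3 and -0.46 for Cryab, of which 1 IR cell held 88.5% of UMIs.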

How the results depend on the processing

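The direction of the share held under every alternative, higher in sham than in IR. The sham share was 4.74%. It was 5.39% with at most 2500 genes, 4.23% with 0 UMIs of Myh11 and Acta2 and 2.91% under strict other-class limits. Thinned to 2000 UMIs, with shallower barcodes left out, it was 2.04%. The IR share was 1.11%, and it was 1.45%, 0.860% and 0.884% under the first 3 of these and 0.822% with mitochondrial UMIs at most 10%. Genes at least 2-fold higher numbered 578 of 7000 (8.26%), against 200 of 3279 (6.10%) when thinned. They numbered 1047 of 9950 (10.5%) with a minimum of 10 UMIs and 174 of 2904 (5.99%) with a minimum of 100. Genes at least 2-fold lower numbered 585 (8.36%), against 317 (9.67%), 1145 (11.5%) and 199 (6.85%) in these settings. Under strict limits 385 of 5282 (7.29%) were lower. Thinning left 3279 of 7000 genes compared, and its calls shared 17.5% of the higher and 27.4% of the lower genes of the main result, which were 50.5% of the thinned calls in each direction. Thinning also gave the chaperone list a median of -0.98, against -0.37. The upper limit of 2500 genes gave 411 (6.72%) higher and 609 (9.96%) lower of 6115 genes. Median-ratio scaling gave 658 (9.40%) and 521 (7.44%) of 7000. Of the main higher genes, 49.8% recurred with at most 2500 genes and 52.1% under strict limits. Of the main lower genes, 66.2% and 49.9% did. The macrophage gene list reversed, from a median of -1.09 to 0.67 under strict limits, which leave 3 genes compared. The cause was not tested. Leaving out leukocyte-carrying barcodes, chosen after seeing the data, gave 454 (7.30%) higher and 515 (8.28%) lower of 6217 genes. These calls held 61.2% of the main higher and 69.9% of the main lower genes. Depth limits low genes in particular, since the IR pericytes hold 473087 UMIs. No paired analysis was possible because the cells of the numbered samples cannot be told apart and each group is 1 library.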
